A study of Mus musculus with 2 samples.

Results

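The genes described here are 10 type 2 cytokine and group 2 innate lymphoid cell (ILC2) effector genes, of 23946 genes counted in the series. They are Il5, Il13, Il4, Csf2, Ccl1, Areg, Calca, Il1rl1, Il2ra and Gata3, and they were chosen by name. The study examined the hearts of WT female C57BL6 mice, between 8 and 16 weeks old by its methods, that received 1 i.p. injection of 200 mg/kg isoproterenol (ISO), a beta-adrenergic agonist, as a model of Takotsubo syndrome (TTS). Live CD45+ cells were sorted at 24 h and pooled from 3 mice, 15000 cells were loaded for 3′ single-cell RNA-Seq, and the series holds 1 control library (PBS vehicle by the methods) and 1 TTS library. The label text gives the same ISO treatment for both libraries, so the control is known from its title and from the methods. With 1 library per group no difference between groups could be tested. All intervals below are 95% intervals that cover counting error only, and the spread between mice cannot be seen.

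ILC2s are tissue lymphocytes that lack antigen receptors and respond to alarmins such as IL-33, which binds the ST2 receptor encoded by Il1rl1. They depend on the transcription factor GATA3, respond to IL-2 through the alpha chain encoded by Il2ra, and secrete IL-5, IL-13, GM-CSF and, in smaller amounts, IL-4. Activated ILC2s can also make the neuropeptide CGRP from Calca and the epidermal growth factor receptor ligand amphiregulin from Areg, which serves tissue repair and is also made by T cells and myeloid cells. CD4 T helper 2 cells, mast cells and basophils share parts of this program.

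The members Il4, Il13, Il5 and Csf2 lie in the type 2 cytokine region of chromosome 11 (mm10 coordinates, GENCODE M21). Il4 spans chr11:53602982-53618669 and Il13 chr11:53631324-53634702, both on the minus strand. Il5 spans chr11:53720794-53725106 on the plus strand and Csf2 chr11:54247271-54249667 on the minus strand. Areg lies at chr5:91139599-91148432 on the plus strand and Calca at chr7:114631478-114636357 on the minus strand. Il5, Csf2 and Gata3 each overlap an annotated gene on the opposite strand, and the strand setting of the counting is not given in the sources used here. Gata3 and Il2ra also each overlap an annotated gene on the same strand. Calca encodes both calcitonin and CGRP, which a count per gene does not separate.

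The promoters of 4 members are shown because Areg and Calca carry the main differences between the libraries and Il13 and Il5 differed in opposite directions in ILC2-gated barcodes. They are RefSeq sequences of build GRCm38.p6, from 250 bases before to 50 bases after the gene start, 5′ to 3′ on the strand of the gene. The windows are chr5:91139349-91139648 (plus strand), chr7:114636308-114636607 (minus), chr11:53634653-53634952 (minus) and chr11:53720544-53720843 (plus). Capitals mark motif letters on either strand. They are TGACG, which is part of the cAMP response element TGACGTCA, the GATA-factor motif AGATAA and the NFAT core TGGAAA.
Areg: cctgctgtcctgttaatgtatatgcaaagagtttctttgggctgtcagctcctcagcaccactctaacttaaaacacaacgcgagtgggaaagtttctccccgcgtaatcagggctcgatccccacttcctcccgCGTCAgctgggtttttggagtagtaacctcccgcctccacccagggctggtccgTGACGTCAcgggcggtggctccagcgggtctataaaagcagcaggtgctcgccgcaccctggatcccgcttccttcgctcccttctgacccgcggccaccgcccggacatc
Calca: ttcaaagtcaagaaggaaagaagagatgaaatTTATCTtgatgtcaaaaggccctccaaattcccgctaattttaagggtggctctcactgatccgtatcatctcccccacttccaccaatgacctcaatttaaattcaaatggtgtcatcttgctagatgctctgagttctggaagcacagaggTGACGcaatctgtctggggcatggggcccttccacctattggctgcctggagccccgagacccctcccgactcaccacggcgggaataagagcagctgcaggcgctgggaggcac
Il13: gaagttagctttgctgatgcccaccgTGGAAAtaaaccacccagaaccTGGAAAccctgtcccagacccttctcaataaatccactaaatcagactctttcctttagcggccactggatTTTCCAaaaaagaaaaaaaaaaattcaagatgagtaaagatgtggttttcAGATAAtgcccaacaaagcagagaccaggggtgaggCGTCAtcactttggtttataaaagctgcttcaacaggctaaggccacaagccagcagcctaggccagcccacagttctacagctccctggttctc
Il5: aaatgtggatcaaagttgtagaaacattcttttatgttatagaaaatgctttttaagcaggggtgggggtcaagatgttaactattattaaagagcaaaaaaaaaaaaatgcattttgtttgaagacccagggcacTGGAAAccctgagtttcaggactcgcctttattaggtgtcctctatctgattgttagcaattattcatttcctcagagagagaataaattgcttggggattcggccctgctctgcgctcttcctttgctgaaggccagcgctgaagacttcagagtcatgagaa
The full element TGACGTCA, which reads the same on both strands, stood in the Areg window with its first base at -61 from the start, and in none of the other member windows. It was present in 588 of 32851 promoter windows, or 1.79%. The shorter TGACG, which overlaps it, stood at -65 in Calca and on the minus strand at -45 in Il13, and was in 20.8% of all windows, those of Il1rl1 and Il4 included. Of the 4 windows shown, AGATAA was in those of Calca and Il13 and in 11.2% of all windows, and TGGAAA was in those of Il13 and Il5 and in 21.4%. The other GATA-factor motif searched, TGATAA, was in 9.05% of all windows and in none of these 4. These matches are a description of the letters, and binding was not measured. The 10 members matched 12 promoter windows.

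After the cell filter, 5641 control and 5437 TTS barcodes remained, with a median of 4790 and 8537 unique molecular identifiers (UMIs, each counting 1 captured transcript). The 2 libraries shared 15 barcode sequences. Classes were gated on marker genes that include none of the members. ILC2-gated barcodes numbered 123 in control and 73 in TTS, and another 68 and 102 carried the same markers together with myeloid transcripts at or above 5000 CPM (UMIs per 1000000 UMIs of the class), which are reported apart as ILC2 with myeloid. T cell-gated barcodes numbered 191 and 34, NK cell-gated 407 and 35, and B cell-gated 1850 and 38. Mononuclear phagocytes were split by complement C1q transcripts into C1q-high (798 and 937) and C1q-low barcodes (70 and 2125), so that C1q-high barcodes made up most of them in control and C1q-low barcodes most of them in TTS. Unassigned barcodes numbered 463 and 479. A drop in the number of barcodes of a class and a change in the makeup of the sorted pool cannot be told apart.

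The ILC2-gated barcodes were described by the gate markers and by genes of other cells. A barcode entered the gate only with at least 4 of the 11 markers found in the files, so their presence is not a check of it. All 11 markers were detected in both libraries. Il7r was at 766 and 844 CPM, Rora at 1460 and 1043 CPM and Icos at 262 and 274 CPM in control and TTS. Cd3d, Cd3e, Cd3g and Trac were at 0, the CD3 genes by the gate, while transcripts of the T cell receptor beta constant gene Trbc2 were present at 324 and 221 CPM. The ILC3 genes Il23r and Il22 were at 0. Transcripts of other cells were low but moved with the library: the 12 macrophage markers summed to 229 CPM in control and 212 CPM in TTS, the 7 neutrophil markers to 13.3 and 293 CPM and the 8 B cell markers to 83.9 and 24.9 CPM. Their part in the values below was not tested. ILC2-gated barcodes were also shallower in TTS, with a median of 3530 UMIs against 5659 in control.

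In ILC2-gated barcodes, Calca was the member with the largest difference in favour of TTS, and Ccl1 and Il13 were the members with the largest differences in favour of control. A gene was called where its CPM differed at least 2-fold between the libraries and it had at least 20 UMIs over both. By this rule 2 of 10 members were higher in TTS (Calca and Il5) and 2 were lower (Il13 and Ccl1), beside 8.49% of 5780 genes called higher and 7.25% called lower. The lineage genes Gata3, Il1rl1 and Il2ra had log2 ratios of CPM between -0.20 and 0.16 in this gate. Their log2 ratios of CPM were lower in ILC2 with myeloid barcodes, and are given below beside values per Gata3 UMI.

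**Figure D1:**
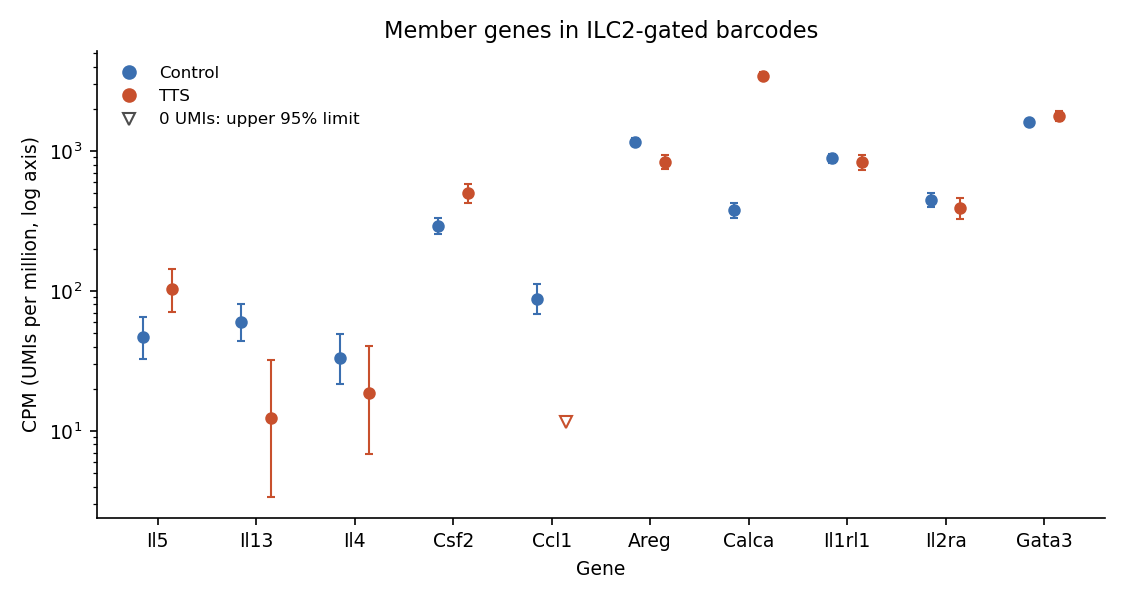
CPM on a log axis of the 10 member genes in ILC2-gated barcodes of the control (123 barcodes) and TTS library (73 barcodes). Points are 1 library each, bars are exact Poisson 95% intervals, and the open triangle is the upper limit for Ccl1 at 0 UMIs in TTS. Calca stands at 377 CPM in control and 3456 CPM in TTS, while Il1rl1, Il2ra and Gata3 lie close together.

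Among the secreted cytokines, Il5, the eosinophil growth factor, was at 46.6 CPM (32.5 to 64.8, 35 UMIs) in control and 103 CPM (70.7 to 144, 33 UMIs) in TTS. The log2 ratio of TTS to control was 1.14 (0.41 to 1.87). Its UMIs came from 18 of 123 control and 13 of 73 TTS barcodes, and 1 control barcode alone held 15. The Il5 ratio kept its direction but came under 2-fold, at 0.41 to 0.99 on the log2 scale, under 5 of 12 other settings, and was lowest where barcodes with myeloid transcripts were kept in.

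Il13, which drives mucus production and alternative macrophage activation, was at 59.9 CPM (43.7 to 80.2, 45 UMIs) in control and 12.5 CPM (3.39 to 31.9, 4 UMIs) in TTS, a log2 ratio of -2.27 (-4.20 to -0.81). In control it was found in 12 of 123 barcodes, of which 1 held 22 UMIs, and in TTS all 4 UMIs lay in 1 of 73 barcodes. ILC2 with myeloid barcodes showed the opposite order, with 1 UMI of Il13 in control and 18 in TTS, of which 14 lay in 1 barcode. Il13 was therefore carried by a handful of barcodes, and its direction differed between the gates.

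Il4, the cytokine of T helper 2 differentiation and IgE switching, was at 33.3 CPM (21.6 to 49.2, 25 UMIs) and 18.7 CPM (6.85 to 40.7, 6 UMIs) in control and TTS. Its log2 ratio of -0.83 had an interval that included 0 (-2.41 to 0.49). No barcode held more than 3 Il4 UMIs.

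Csf2, which encodes GM-CSF, a growth and activation factor for myeloid cells, was at 293 CPM (256 to 334, 220 UMIs) in control and 498 CPM (424 to 582, 160 UMIs) in TTS, a log2 ratio of 0.77 (0.46 to 1.07). The higher TTS level came from fewer barcodes, 19 of 73 against 50 of 123, counts not corrected for the lower depth of the TTS barcodes. The top 5 barcodes held 69.4% of the Csf2 UMIs in TTS and 36.8% in control. In ILC2 with myeloid barcodes Csf2 was at 182 CPM in control and 78.0 CPM in TTS, and once both gates were joined the log2 ratio was -0.62. Csf2 was also scaled per 100 Gata3 UMIs, which does not use the total UMIs of the class. On this scale it was at 25.3 and 21.5 in ILC2 with myeloid barcodes, a log2 ratio of -0.24 whose interval included 0 (-0.59 to 0.11).

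Ccl1, the ligand of the chemokine receptor CCR8, was at 87.9 CPM (68.0 to 112, 66 UMIs in 19 of 123 barcodes) in control and had 0 UMIs in 73 TTS barcodes, with an upper limit of 11.5 CPM. Against a floor of 3 UMIs it was at least 9.41-fold lower in TTS. ILC2 with myeloid barcodes showed the same order, with 80 UMIs in control and 4 in TTS. Here the 2 gates had the same direction.

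At least 1 UMI of Il5, Il13, Il4, Csf2 or Ccl1 was found in 82 of 123 control barcodes, or 66.7% (57.6 to 74.9), and in 29 of 73 TTS barcodes, or 39.7% (28.5 to 51.9). A control barcode carried a median of 5 of the 10 members and a TTS barcode a median of 4. These shares are not corrected for the lower depth of the TTS barcodes. Il13 and Il4, which are neighbours on chromosome 11, were found together in 7 control barcodes, where the product of their shares gives 1.95, and in 0 TTS barcodes, where only 1 barcode held Il13. Il5 and Csf2 were found together in 8 control barcodes, where the product of their shares gives 7.32, and in 8 TTS barcodes, where it gives 3.38. These counts are not corrected for depth either.

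Calca showed the largest difference among the members that were higher in TTS. It was at 377 CPM (334 to 423, 283 UMIs) in control and 3456 CPM (3255 to 3665, 1110 UMIs) in TTS, 9.17-fold higher, with a log2 ratio of 3.20 (3.01 to 3.39). This ratio stood at percentile 99.3 of the 5780 genes tested. Both the number of positive barcodes and the UMIs in each were higher: 39 of 123 control and 41 of 73 TTS barcodes had a UMI, and 12 and 21 barcodes held 10 or more.

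With every barcode thinned to 1000 UMIs, 18.7% (12.2 to 26.7) of control and 43.8% (32.2 to 56.0) of TTS ILC2-gated barcodes had a Calca UMI. B cell-gated barcodes, which should lack the gene and had a median depth of 3287 and 3316 UMIs, had a Calca UMI in 0.16% in control and in 0 of 38 in TTS, which allows up to 9.25%. The signal was uneven in TTS, where the top 5 barcodes held 48.7% of the UMIs and 1 barcode held 172. ILC2 with myeloid barcodes gave 121 CPM (99.4 to 146) in the control library and 578 CPM (541 to 618) in the TTS library. Calca was also scaled per 100 Gata3 UMIs, which does not use the total UMIs of the class. It was at 23.6 in control and 193 in TTS in ILC2-gated barcodes, 8.18-fold higher. In ILC2 with myeloid barcodes it was at 16.8 and 159, 9.47-fold higher, against 4.78-fold by CPM. Gata3 itself was at 720 CPM in control and 363 CPM in TTS in ILC2 with myeloid barcodes, so this scale depends on the Gata3 difference. The Calca difference thus had the same direction in both gates, which share no barcode but come from the same 2 libraries and are not replicates.

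**Figure D2:**
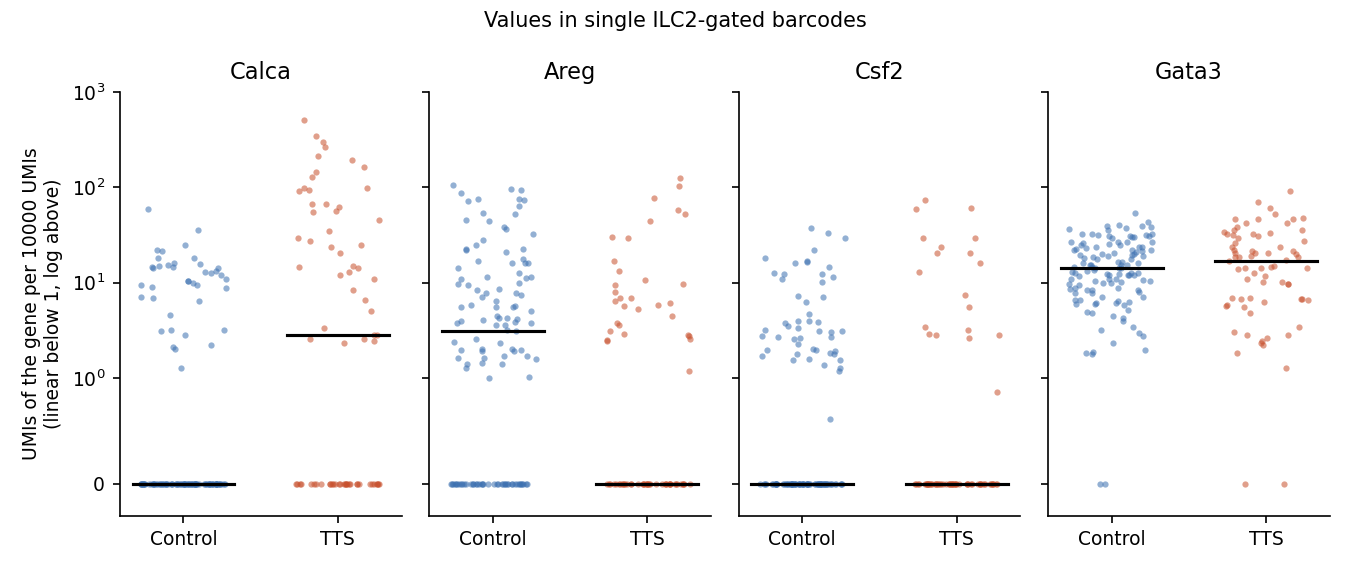
UMIs of Calca, Areg, Csf2 and Gata3 per 10000 UMIs in each of the 123 control and 73 TTS ILC2-gated barcodes, on an axis that is linear below 1 and logarithmic above. Each point is 1 barcode, with random sideways scatter, and black lines are medians. Gata3 is present in nearly every barcode of both libraries, while Calca has 21 TTS barcodes with 10 or more UMIs against 12 control barcodes.

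Areg had the opposite order to Calca in ILC2-gated barcodes. It was at 1167 CPM (1091 to 1247, 876 UMIs) in control and 834 CPM (737 to 940, 268 UMIs) in TTS, a log2 ratio of -0.48 (-0.69 to -0.28), which did not reach the 2-fold limit. A UMI was found in 82 of 123 control and 32 of 73 TTS barcodes, and after thinning to 1000 UMIs in 34.1% (25.8 to 43.2) and 23.3% (14.2 to 34.6). ILC2 with myeloid barcodes gave 492 CPM in control and 556 CPM in TTS. Per 100 Gata3 UMIs the direction of Areg differed between the gates, from 73.1 in control to 46.6 in TTS in ILC2-gated barcodes and from 68.4 to 153 in ILC2 with myeloid barcodes, 2.24-fold higher. Mononuclear phagocytes also carried Areg, at 117 CPM in control and 343 CPM in TTS C1q-high barcodes. Scaling by Gata3 therefore does not allow for myeloid Areg, and its part in the ILC2 with myeloid values was not tested.

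The receptors and the transcription factor differed little in ILC2-gated barcodes. Il1rl1 was at 886 CPM (820 to 956, 665 UMIs) in control and 828 CPM (732 to 934, 266 UMIs) in TTS, a log2 ratio of -0.10 (-0.31 to 0.11). Il2ra was at 446 CPM (400 to 497, 335 UMIs) and 389 CPM (324 to 464, 125 UMIs), a log2 ratio of -0.20 (-0.51 to 0.10). Both intervals included 0. Gata3 was at 1597 CPM (1508 to 1690, 1199 UMIs) and 1790 CPM (1647 to 1943, 575 UMIs), a log2 ratio of 0.16 (0.02 to 0.31). Gata3 was found in 121 of 123 control and 71 of 73 TTS barcodes, Il1rl1 in 117 and 65, and Il2ra in 109 and 58. The median log2 ratio of all genes tested in ILC2-gated barcodes was 0.095, so that these 3 genes lay near it. In ILC2 with myeloid barcodes Il1rl1 was at 354 CPM in control and 182 CPM in TTS, a log2 ratio of -0.96 (-1.20 to -0.72), and Gata3 at 720 and 363 CPM, a log2 ratio of -0.99 (-1.15 to -0.82). Il2ra was at 133 and 115 CPM there. With both gates joined, the log2 ratios of CPM were -1.01 for Il1rl1, -0.86 for Gata3 and -0.75 for Il2ra. The sum of the ILC2 markers was also lower in ILC2 with myeloid barcodes, at 1830 CPM in control and 1178 CPM in TTS. Per Gata3 UMI, the log2 ratios in these barcodes were 0.02 (-0.21 to 0.26) for Il1rl1 and 0.78 (0.43 to 1.12) for Il2ra. In ILC2-gated barcodes they were -0.26 (-0.47 to -0.05) and -0.36 (-0.67 to -0.06). The part of myeloid transcripts in the lower CPM values was not tested.

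Genes related to the members were grouped into 5 lists. Of 80 list genes in the files, 50 had at least 20 UMIs in ILC2-gated barcodes. Of these, 6 were called higher and 6 lower, beside 8.49% of 5780 genes called higher and 7.25% called lower. The lists include some ILC2 gate markers, such as Il7r, Rora and Icos, whose presence the gate selects. After scaling by the median ratio of genes, 3 list genes were called higher (Csf2ra, Csf2rb and Pdcd1) and 7 lower, since Ramp3, Ccr8 and Il2rb came under 2-fold. Of the receptors for the member cytokines, 4 of 8 measured were higher and none was lower, with a median log2 ratio of 0.51. They were the GM-CSF receptor chains Csf2ra (30.6 to 84.1 CPM from control to TTS) and Csf2rb (9.32 to 52.9 CPM), the CGRP and adrenomedullin co-receptor Ramp3 (245 to 507 CPM) and the CCL1 receptor Ccr8 (15 and 13 UMIs, 2.03-fold). Both chains are expressed by myeloid cells as well. In TTS, Csf2ra was at 170 CPM and Csf2rb at 129 CPM in B cell-gated barcodes, against 20.9 and 15.2 CPM in control B cell-gated barcodes. The part of transcripts from other cells in the ILC2-gated values was not tested.

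Of the activating signals and their receptors, 1 of 9 was higher, the IL-2 receptor beta chain Il2rb (45.3 to 93.4 CPM), and 2 were lower, among them the T cell growth factor Il2 (36.0 to 6.23 CPM, 27 and 2 UMIs). Of the transcription factors of type 2 lymphocytes, 0 of 14 were higher and 2 were lower, Maf (238 to 115 CPM) and Stat5b (34.6 to 15.6 CPM), with a median log2 ratio of -0.31. Of the other effectors, 0 of 9 were higher and 2 were lower, Il6 (45.3 to 9.34 CPM) and the RANK ligand gene Tnfsf11 (69.3 to 34.2 CPM), with a median of -0.61. Of the negative regulators, 1 of 10 was higher and none was lower. This was Pdcd1, which encodes the inhibitory receptor PD-1, at 21.3 CPM (16 UMIs) in control and 196 CPM (63 UMIs) in TTS, 9.20-fold higher with a log2 ratio of 3.20 (2.39 to 4.09).

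Across all gated classes the members fell into distinct patterns. Il5 had 0 UMIs in T cell-gated, C1q-high and B cell-gated barcodes of both libraries and in control NK cell-gated barcodes, with 1 UMI in TTS NK cell-gated and 1 in TTS C1q-low barcodes. In control, Il5 was at least 79.8-fold higher in ILC2-gated than in C1q-high barcodes, against a floor of 3 UMIs. Gata3 was present outside ILC2-gated barcodes at 203 and 137 CPM in T cell-gated and at 140 and 183 CPM in NK cell-gated barcodes of control and TTS, with B cell-gated barcodes at 2.23 CPM in control and 0 UMIs in TTS.

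**Figure D3:**
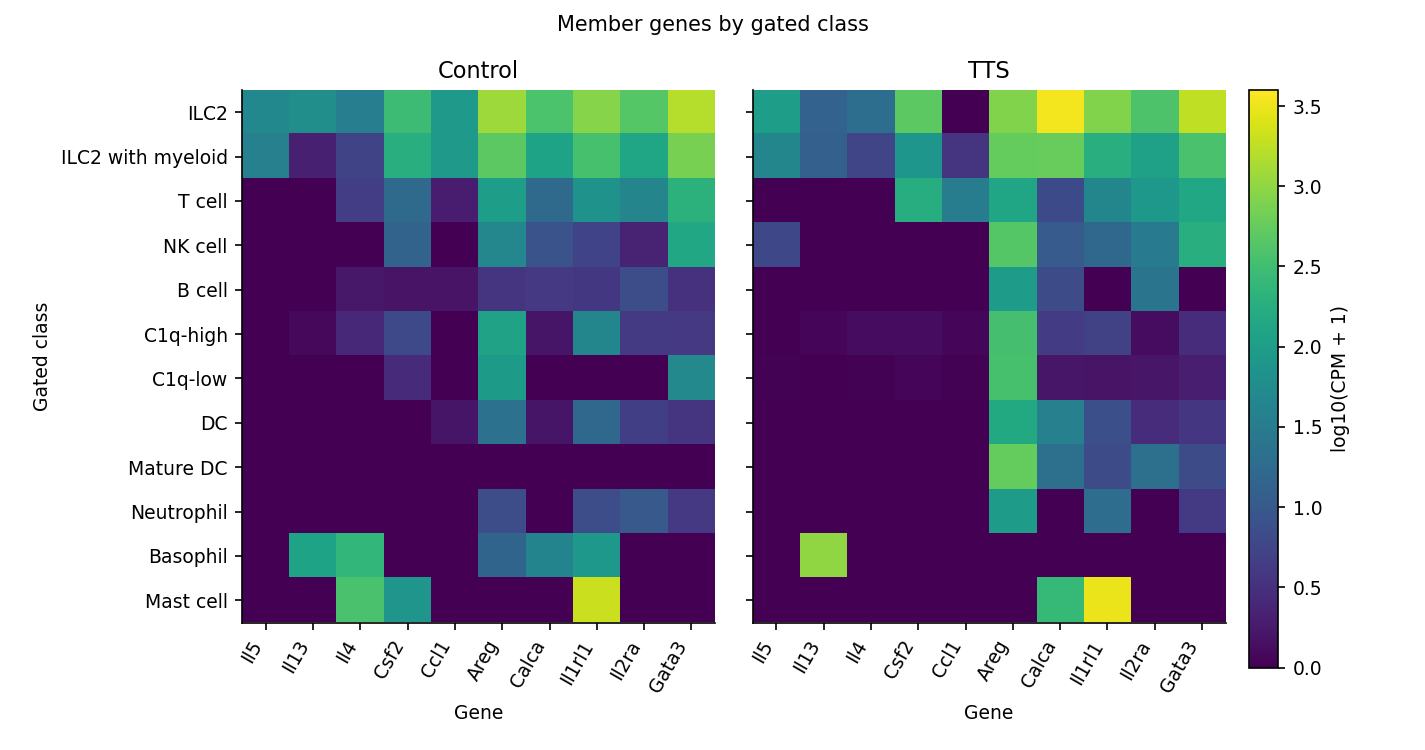
Levels of the 10 member genes in 12 gated classes of the control (left) and TTS (right) library, as log10(CPM + 1). Il5 and Il2ra are highest in the ILC2-gated barcodes of both libraries, Il4 in basophil-gated and mast cell-gated barcodes of control, and Areg is above 90 CPM in every gated class shown for TTS except basophil-gated and mast cell-gated barcodes, which hold 1 and 2 barcodes there.

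Basophil-gated and mast cell-gated barcodes were few, 15 and 1 for basophils and 4 and 2 for mast cells in control and TTS. Basophils are a known source of IL-4, and the 15 control barcodes held 18 Il4 UMIs, or 243 CPM (144 to 384), in 8 barcodes. The 4 control mast cell-gated barcodes held 5 Il4 UMIs. Il13 was at 122 CPM (55.6 to 231, 9 UMIs) in control basophil-gated barcodes, and the 1 TTS basophil-gated barcode held 4 UMIs of it. Il1rl1, the IL-33 receptor that mast cells carry, was at 2058 CPM (28 UMIs) in control and 3081 CPM (36 UMIs) in TTS mast cell-gated barcodes, with a UMI in all 6. No Areg UMI was found in the mast cell-gated barcodes and 1 in the basophil-gated barcodes, so that neither was a visible source of Areg at this number of barcodes.

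In T cell-gated barcodes, 6 of 10 members had at least 20 UMIs, of which 1 was called higher (Csf2) and 1 lower (Calca), beside 10.6% and 13.2% of 6779 genes. Csf2 was at 16.6 CPM (19 UMIs) in control and 176 CPM (32 UMIs) in TTS, but 31 of the 32 TTS UMIs lay in 1 of 34 barcodes, and without the top barcode of each library the log2 ratio changed from 3.40 to -0.79. Calca had 19 UMIs in 2 control barcodes, of which 1 held 15, and 1 UMI in TTS, and its log2 ratio changed from -1.60 (-6.97 to 1.06) to 2.48 after thinning to 1000 UMIs and to 1.97 with myeloid-transcript barcodes kept in. Areg was at 103 CPM (85.4 to 124) and 132 CPM (84.4 to 196) in control and TTS. Il2ra was at 42.8 CPM (31.7 to 56.6) and 82.3 CPM (46.1 to 136). Il5 and Il13 had 0 UMIs in T cell-gated barcodes of both libraries, and Il4 had 4 in control and 0 in TTS.

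Member transcripts in T cell-gated barcodes lay mostly in those that also carried ILC2 markers. In control, 65 of 191 T cell-gated barcodes had 4 or more ILC2 markers, and they held 102 of 118 Areg UMIs, 161 of 232 Gata3 UMIs and 69 of 77 Il1rl1 UMIs. The 64 control barcodes without Cd4 or Cd8 transcripts held 97 Areg UMIs, the 43 Cd4 barcodes 16 and the 79 Cd8 barcodes 5. The top 5 control barcodes held 97 of the Areg UMIs. The 17 control barcodes with gamma delta T cell genes held 40 Areg, 68 Gata3, 24 Il1rl1 and 29 Il2ra UMIs. The ILC2 markers Il7r and Icos were at 590 and 241 CPM in control T cell-gated barcodes as a whole. T cells with a type 2 program, other T cells that share these markers and barcodes that hold an ILC2 together with a T cell cannot be told apart here.

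Most Ccl1 UMIs in TTS lay outside the ILC2 gates. Of 415 control UMIs, 66 lay in ILC2-gated and 80 in ILC2 with myeloid barcodes, while 183 lay in barcodes with markers of 2 lineages. Of 57 TTS UMIs, 39 lay in 4 T cell with myeloid barcodes, all of them with 4 or more ILC2 markers, and 6 in 1 T cell-gated barcode. The TTS values thus rest on very few barcodes.

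In NK cell-gated barcodes Areg was the 1 member called higher of 3 measured, beside 7.09% of 7741 genes. No member was called lower, beside 20.6%. It was at 45.2 CPM (35.4 to 56.8, 73 UMIs) in control and 440 CPM (353 to 541, 89 UMIs) in TTS, a log2 ratio of 3.28 (2.82 to 3.75). The positive barcodes were few, 7 of 407 in control and 7 of 35 in TTS, and 5 TTS barcodes held 86 of the 89 UMIs. The median log2 ratio of all genes tested in NK cell-gated barcodes was -0.27. After thinning every barcode to 1000 UMIs the log2 ratio of Areg was 1.40. The NK markers summed to 20149 CPM in control and 11680 CPM in TTS NK cell-gated barcodes, the CD3 genes to 14.2 and 148 CPM and the macrophage markers to 222 and 568 CPM, and their part in the Areg difference was not tested.

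Areg UMIs were spread over many classes, and the spread differed between the libraries. In control, 876 of 4610 Areg UMIs, or 19.0% (17.9 to 20.2), lay in ILC2-gated barcodes and 14.2% (13.2 to 15.2) in mononuclear phagocytes. Barcodes with markers of 2 lineages held 20.3% of the control UMIs, T cell with myeloid barcodes 14.2%, ILC2 with myeloid barcodes 9.72% and B cell with myeloid barcodes 9.28%. In TTS the total was 18407, of which 52.2% (51.4 to 52.9) lay in mononuclear phagocytes and 1.46% (1.29 to 1.64) in ILC2-gated barcodes. The C1q-low barcodes alone held 34.8% of the TTS total and neutrophil with macrophage barcodes 17.8%. The numbers of mononuclear phagocytes differed between the libraries, so these shares combine the level per class with the size of each class.

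**Figure D4:**
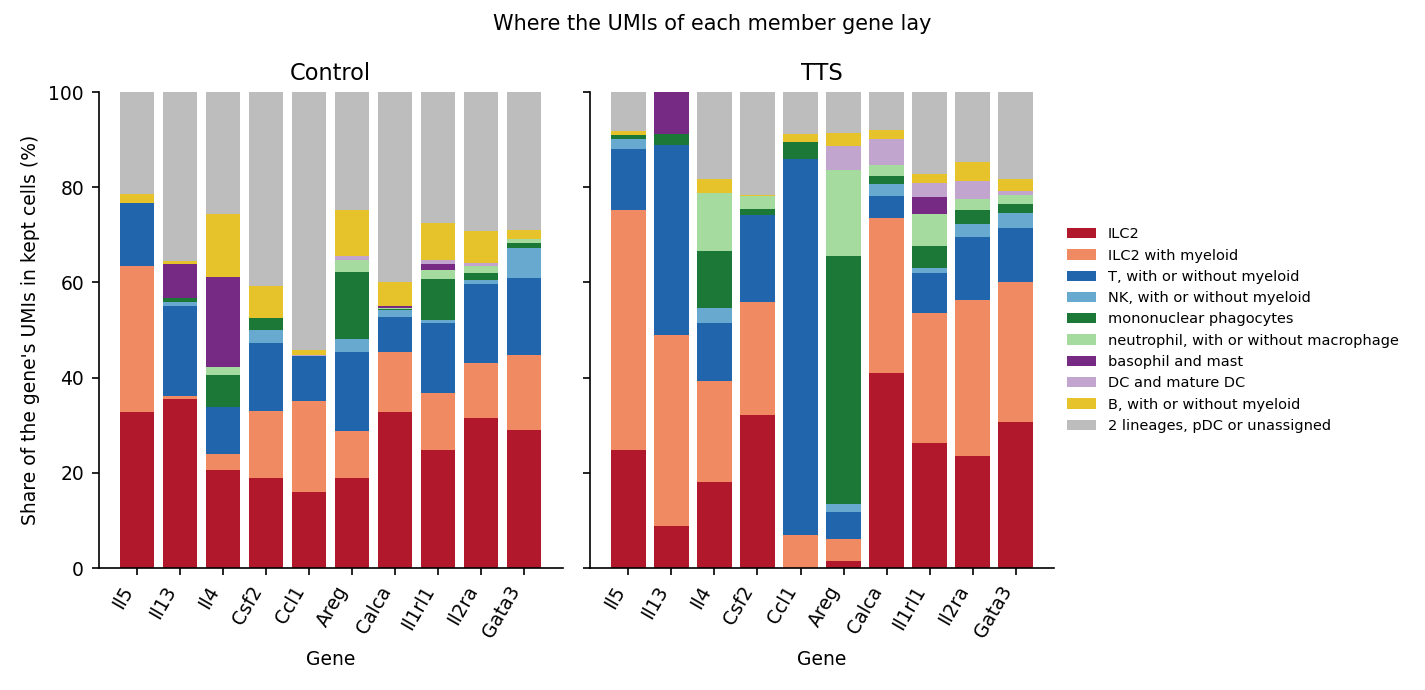
Share in percent of the UMIs of each member gene that lay in each group of gated classes, control on the left and TTS on the right, each bar summing to 100% of the gene's UMIs in kept cells. Mononuclear phagocytes hold 14.2% of Areg UMIs in control and 52.2% in TTS, while ILC2-gated and ILC2 with myeloid barcodes hold most of the Calca and Il5 UMIs in TTS.

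Per UMI of the class, Areg was higher in TTS in both groups of mononuclear phagocytes. The C1q-high barcodes themselves differed between the libraries, with C1q at 13676 and 6040 CPM, macrophage markers at 36203 and 16662 CPM and monocyte markers at 1312 and 6332 CPM in control and TTS, and the part of this in the C1q-high values of Areg and Il1rl1 was not tested. C1q-low barcodes differed as well. Their macrophage markers were at 4251 and 6854 CPM and their monocyte markers at 7830 and 10529 CPM in control and TTS. Their neutrophil markers were at 193 and 627 CPM, and the part of this in the C1q-low values of Areg was not tested. In C1q-high barcodes Areg was at 117 CPM (108 to 127, 602 UMIs) in control and 343 CPM (331 to 355, 3194 UMIs) in TTS, a log2 ratio of 1.55 (1.42 to 1.67). In C1q-low barcodes it was at 89.4 CPM (66.5 to 117, 51 UMIs) and 352 CPM (343 to 361, 6407 UMIs), a log2 ratio of 1.98 (1.58 to 2.40). These ratios stood at percentiles 95.5 and 97.5 of the genes tested, whose median log2 ratios were -0.19 and -0.32. In TTS the 2 groups had nearly the same level, with a log2 ratio of C1q-high to C1q-low of -0.04 (-0.10 to 0.02).

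Areg in mononuclear phagocytes lay in a minority of barcodes, some with many UMIs each. In TTS, 394 of 2125 C1q-low and 212 of 937 C1q-high barcodes had a UMI, and the 212 and 94 barcodes with most of them held 94.4% and 90.4% of the UMIs. Barcodes with 10 or more Areg UMIs were 12 of 798 in control and 85 of 937 in TTS among C1q-high, and 1 of 70 and 171 of 2125 among C1q-low. They were deeper than those without Areg: in TTS the median depth was 11431 against 8088 UMIs in C1q-high and 10161 against 7625 UMIs in C1q-low barcodes. After thinning to 1000 UMIs, 4.26% (2.97 to 5.90) of control and 11.2% (9.26 to 13.4) of TTS C1q-high barcodes had an Areg UMI. In C1q-low barcodes these shares were 7.14% (2.36 to 15.9) and 9.88% (8.65 to 11.2), and their intervals overlapped. In control 25 of the 51 C1q-low UMIs lay in 1 barcode.

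Other myeloid classes also carried Areg in TTS. Dendritic cell (DC)-gated barcodes were at 21.5 CPM (15.0 to 29.9) in the control library and at 153 CPM (141 to 167) in the TTS library, a log2 ratio of 2.84 (2.34 to 3.37). In TTS, 131 of the 566 Areg UMIs lay in 1 of 324 DC-gated barcodes, and the top 5 held 49.1%. The lowest ratio under 11 other settings was 1.53. Mature DC-gated barcodes, which express the migration receptor Ccr7, were at 555 CPM (501 to 614) in TTS, with a UMI in 29 of 54 barcodes, and only 2 such barcodes were present in control. Neutrophil-gated barcodes had 2 UMIs in control and 32 in TTS, at 97.2 CPM (66.5 to 137), of which 16 lay in 1 barcode. B cell-gated barcodes, taken as the class that should lack Areg, were at 2.65 CPM in control and 93.6 CPM in TTS, but all 16 TTS UMIs lay in 1 of 38 barcodes.

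**Figure D5:**
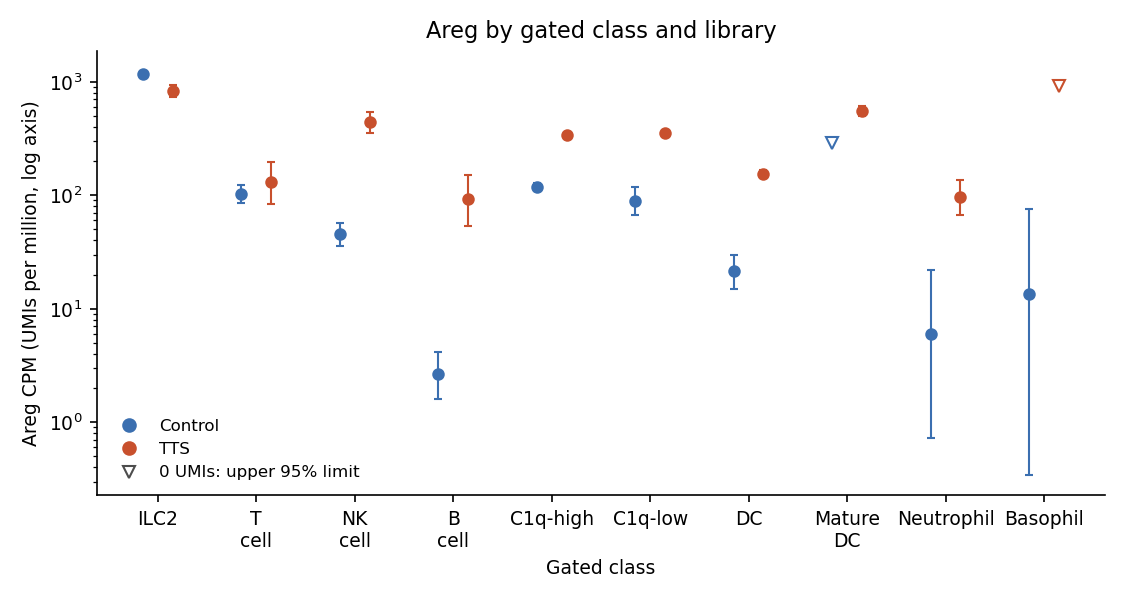
Areg CPM on a log axis in 10 gated classes of the control and TTS library. Points are 1 library each, bars are exact Poisson 95% intervals, and open triangles are upper limits for classes with 0 UMIs. In control ILC2-gated barcodes (1167 CPM) stand far above the others, while in TTS mature DC-gated (555 CPM), NK cell-gated (440 CPM) and both C1q groups (343 and 352 CPM) come nearer to ILC2-gated barcodes (834 CPM).

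The order of the classes by Areg level was led by ILC2-gated barcodes in both libraries. In control they were 9.95-fold above C1q-high and 11.3-fold above T cell-gated barcodes, and the intervals of C1q-high, T cell-gated and C1q-low barcodes overlapped. In TTS they were 2.44-fold above C1q-high and 2.37-fold above C1q-low barcodes. Mature DC-gated and NK cell-gated barcodes followed, with overlapping intervals, and then both C1q groups. The interval of NK cell-gated barcodes also overlapped those of both C1q groups. DC-gated, T cell-gated, neutrophil-gated and B cell-gated barcodes came after them.

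Other members in myeloid classes were low. Of 5 members measured in C1q-high barcodes, Areg and Calca were called higher and Il1rl1 and Csf2 lower, beside 9.73% and 18.7% of 11496 genes. Il1rl1 was at 44.4 CPM (38.8 to 50.6, 228 UMIs) in control and 3.97 CPM (2.79 to 5.47, 37 UMIs) in TTS, a log2 ratio of -3.48 (-4.03 to -2.98). It was spread over 164 of 798 control barcodes and 35 of 937 TTS barcodes, although the TTS barcodes were deeper. B cell-gated control barcodes had an Il1rl1 UMI in 0.54%. After thinning to 1000 UMIs the share with an Il1rl1 UMI was 4.01% in control and 0.32% in TTS C1q-high barcodes, and 0.05% in control B cell-gated barcodes. Csf2 had 27 UMIs in control and 3 in TTS C1q-high barcodes, and 22 of 31 Calca UMIs in TTS lay in 1 barcode. In C1q-low barcodes 2 members were measured, Areg called higher and Gata3 lower, beside 10.0% and 24.3% of 11110 genes, and 27 of the 28 control Gata3 UMIs lay in 1 of 2 positive barcodes, leaving 1.80 CPM without it. In DC-gated barcodes Areg and Calca were called higher and Il1rl1 lower, beside 7.69% and 8.35% of 9625 genes, and 131 of 132 Calca UMIs lay in 1 TTS barcode.

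For 6 members with at least 100 UMIs, the 3 genes with the most similar pattern were found by Pearson correlation of log2(CPM + 10) over 24 class and library sums, as a description. These sums share their libraries, and most of them hold near-zero values for the ILC2 genes. Gata3 was most like Igsf5 (r = 0.94), Pglyrp2 (0.93) and the gate marker Cxcr6 (0.93), and Il2ra most like Mns1 (0.94), Pard3 (0.93) and AI836003 (0.92). Il1rl1 was most like Rab27b (0.86), Atxn1 (0.86) and Ttc28 (0.85). Csf2 was most like AI836003 (0.89), Dach2 (0.88) and Pard3 (0.88). Calca was most like Rab4a (0.87), Rnf128 (0.82) and Rnu11 (0.80). Areg, with its broader pattern, was most like Hilpda (0.83), Slfn10-ps (0.83) and Cox10 (0.81).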

How the data were processed

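The authors deposited 1 table of UMI counts per library, with a gene, a cell barcode and a count in each line, and no normalization. Per the labels' processing notes, bcl2fastq 2.19.1.403, STAR 2.7.3a, featureCounts 1.6.4 (Subread) and UMI-tools 1.0.0 were used with mm10. From these counts, a barcode was kept where it had over 500 but below 6000 genes and a mitochondrial share of UMIs below 25%, the limits of the study's methods. The kept libraries held 41651434 (control) and 55443553 (TTS) UMIs.

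Barcodes were gated by the number of marker genes detected: at least 4 for ILC2 (with 0 CD3 UMIs and fewer than 3 NK markers), 3 for T cells (with at least 2 CD3 UMIs), 4 for NK, B and mast cells, 3 for basophils, plasmacytoid, mature and other dendritic cells, 5 for neutrophils and 8 for mononuclear phagocytes, which were split at 1000 CPM of C1qa, C1qb and C1qc. No doublet caller was run. Barcodes with markers of more than 1 lineage, and lymphoid barcodes with at least 5000 CPM of myeloid markers, were kept apart. The gate limits were set after marker values were seen, and the members and lists were chosen with earlier results of these data known.

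UMIs were summed per class and library and given as CPM with exact Poisson intervals. Ratios have exact conditional intervals and shares exact Clopper-Pearson intervals. No test was run, since each group is 1 library. A gene was called at a 2-fold difference with at least 20 UMIs. Shares were also computed after thinning each barcode to 1000 UMIs. Named genes were the 10 members, list genes past 2-fold in ILC2-gated or T cell-gated barcodes (up to 8 per list), the 3 genes most like each member, and the main sources of Areg. A gene that the rule names is not reported here. The interval code was tested on simulated data. The scripts ran in Python 3.11.15 (intervals: scipy 1.17.1, arrays: numpy 2.4.6, tables: pandas 2.3.3, plots: matplotlib 3.10.9). Of the alternatives, 9 were planned and 3 were added after the data were seen.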

Additional observations from a re-analysis of the deposited data

Results flagged for a closer look

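The members Areg, Csf2 and Gata3 differed in direction between gated classes of the same 2 libraries, and these differences were not tested. The log2 ratio of TTS to control for Areg was -0.48 in ILC2-gated barcodes, but 1.55 in C1q-high, 1.98 in C1q-low, 2.84 in DC-gated, 3.28 in NK cell-gated, 4.01 in neutrophil-gated and 5.14 in B cell-gated barcodes. The B cell-gated value rests on 16 UMIs of 1 TTS barcode, and 131 of the 566 TTS UMIs in DC-gated barcodes lay in 1. For Csf2 the log2 ratio was 0.77 in ILC2-gated and 3.40 in T cell-gated barcodes, against -4.03 in C1q-high barcodes, and the T cell-gated value rests on 31 UMIs of 1 barcode. For Gata3 it was 0.16 in ILC2-gated barcodes and -5.63 in C1q-low barcodes, where 1 control barcode held nearly all UMIs.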

How the results depend on the processing

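Of 134 recomputed main values, 106 moved by less than their counting interval and 28 moved by more. None that was past 2-fold changed sign, but Csf2 and Gata3 in ILC2-gated barcodes, which were not past it, did where barcodes with myeloid transcripts were kept in, and Il1rl1 did under 2 settings (0.04 and 0.10 against -0.10). Areg in neutrophil-gated barcodes came to 0.12 after the B cell level was subtracted. Of 248 others, 199 were the same, 45 moved and 4 that were past 2-fold reversed. Calca in T cell-gated barcodes gave 1.97 with myeloid-transcript barcodes kept in and 2.48 after thinning to 1000 UMIs. Csf2 in T cell-gated barcodes gave -0.79 without the barcode with most UMIs. Calca in DC-gated barcodes gave -1.48 with 1 marker fewer in the gate. All of these rest on few barcodes. Ratios under 2-fold also changed sign under some settings. In T cell-gated barcodes these were Areg (-1.40 to 2.36 over the settings), Il2ra (-0.38 to 1.59), Il1rl1 (-1.96 to 0.42) and Gata3 (-0.93 to 0.34). Gata3 also did so in NK cell-gated (-0.63 to 0.76) and C1q-high barcodes (-1.20 to 1.39). Values are log2 ratios unless stated. In ILC2-gated barcodes, keeping barcodes with myeloid transcripts gave Calca 2.19, Csf2 -0.62, Il1rl1 -1.01, Gata3 -0.86 and Il2ra -0.75, with 191 control and 175 TTS barcodes. A gate with 1 more marker in the gate gave Areg -0.19 and Gata3 0.37. Mean CPM of single cells gave Calca 3.48 and Gata3 0.32, thinning to 1000 UMIs Calca 3.79 and Gata3 0.34, and a total without mitochondrial, ribosomal protein and Gm26924 UMIs Gata3 0.015. Without the top barcode Areg was -0.73. Areg in C1q-high barcodes was 1.74 after scaling by the median ratio of genes, 1.87 after thinning, 1.12 after subtracting the B cell level and 1.74 without the top barcode. In C1q-low barcodes it was 1.51, 1.58 and 2.89 after thinning, subtraction and leaving out the top barcode. With all barcodes over 500 genes, mononuclear phagocytes held 11.7% of Areg UMIs in control and 49.1% in TTS, and ILC2-gated barcodes 15.8% in control. With 1 more marker, mononuclear phagocytes held 54.4% in TTS. List genes called higher in ILC2-gated barcodes numbered 16 with a 1 UMI minimum and 3 with median scaling, against 6. The causes were not tested. The looser gate, the removal of the top barcode and the scaling per Gata3 UMI were chosen after seeing the data. No paired analysis was possible because each group is 1 library. The depth limits Il13, Il4 and Ccl1 most, which had 0 to 6 UMIs in TTS ILC2-gated barcodes.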

Other observations

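Barcodes that entered no class held a visible part of some members. Of 1169 Csf2 UMIs in control, 237 lay in unassigned barcodes, and 229 of these in 44 barcodes that had 4 or more ILC2 markers but failed the CD3 or NK limit of the ILC2 gate. The same 44 barcodes held 36 of 127 control Il13 UMIs, and 1 barcode of the library held 33. The 286 control and 77 TTS barcodes outside the cell filter held 949 and 1145 Areg UMIs, 226 and 29 Csf2 UMIs, and 144 and 130 Calca UMIs.

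Levels of receptors for the secreted members differed between classes. In TTS the GM-CSF receptor gene Csf2ra was at 463 CPM in C1q-low and 436 CPM in C1q-high barcodes and at 84.1 CPM in ILC2-gated barcodes. The CCL1 receptor gene Ccr8 had 15 UMIs in control ILC2-gated barcodes and 2 in control T cell-gated barcodes, and in TTS 13 UMIs in ILC2-gated barcodes against 1 each in NK cell-gated and mature DC-gated barcodes. The IL-5 receptor gene Il5ra had 42 UMIs in control B cell-gated barcodes and 1 in TTS B cell-gated barcodes, and the decoy receptor gene Il13ra2 had 0 in each of the 12 gated classes. The IL-33 gene Il33 had at most 3 UMIs in any of these classes.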
